A study of Rattus norvegicus with 8 samples.

Results

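The genes described here handle haem and iron: hemopexin (Hpx), haptoglobin (Hp), haem oxygenase 1 (Hmox1), lipocalin 2 (Lcn2), ceruloplasmin (Cp), transferrin (Tf), transferrin receptor 1 (Tfrc), erythroid 5-aminolevulinate synthase (Alas2) and beta globin (Hbb). All probe sets whose only gene symbol in the platform annotation is one of these 9 names were taken, which gave 11 probe sets of 8 genes (3 for Cp, 2 for Tfrc and 1 for each of the others) among 31042 probe sets that are not array controls. Tf has no such probe set, because the 2 probe sets that name it also name Srprb. The genes were selected on their measured differences between these groups of arrays, with results known. Their levels and differences, and whether each passed the threshold, are therefore descriptions and no independent test. No p-value is printed for them.

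Total RNA of adult Sprague-Dawley rat testis was measured on the Affymetrix Rat Genome 230 2.0 array, which reads each transcript with sets of short oligonucleotide probes. The rats had received 1 oral dose of Adjudin at 50 mg/kg body weight, a compound that makes germ cells detach from the seminiferous epithelium, and their testes were taken after 8 h (2 arrays) or 4 d (3 arrays). Testes of untreated rats (3 arrays) were the control, and no vehicle-treated group is labelled. Arrays are named by group and number (4 d 1 to 4 d 3, 8 h 1 and 8 h 2, control 1 to control 3). The labels do not say whether the arrays of a group come from separate animals, so the tests measure the spread between arrays, which may be partly technical. Signals are MAS 5.0 intensities scaled here so that every array has a 2% trimmed mean of 500, differences are on the log2(signal + 32) scale with the standard error (SE) of a limma fit over all 8 arrays, and a probe set is said to have risen or fallen where its adjusted p over the 19785 probe sets tested is below 0.05. In whole testis, fewer cells of a type and less RNA per cell cannot be told apart. Nor can a larger share of a cell type and more RNA per cell, where a signal is higher. Every array is scaled to the same trimmed mean, so each signal is relative to the other transcripts of its array.

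Haem is toxic when free, and plasma proteins carry it away: haptoglobin binds haemoglobin, hemopexin binds haem itself, and haem oxygenase inside cells opens the ring and frees its iron. Iron in the ferric form travels on transferrin and enters cells through the transferrin receptor, ceruloplasmin oxidises ferrous iron, and lipocalin 2 binds iron held by siderophores. In the testis the Sertoli cells make transferrin of their own, since the blood-testis barrier separates the germ cells beyond it from plasma. Hpx, Hp, Cp and Lcn2 are also known as acute phase genes, which the liver and other tissues induce in inflammation.

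The promoters of Hpx, Lcn2 and Cp, the acute phase genes among those that had risen at 4 d, are shown because such genes are known to be read by C/EBP, NF-kappaB and STAT factors. Each is the 250 bases before the RefSeq start of the gene in the rat build GRCr8, and capitals mark matches to the letters searched. The Hpx window lies at chr1:169352156-169352405 on the minus strand, the Lcn2 window at chr3:36081781-36082030 on the minus strand, and the Cp window at chr2:104368420-104368669 on the plus strand.
Hpx: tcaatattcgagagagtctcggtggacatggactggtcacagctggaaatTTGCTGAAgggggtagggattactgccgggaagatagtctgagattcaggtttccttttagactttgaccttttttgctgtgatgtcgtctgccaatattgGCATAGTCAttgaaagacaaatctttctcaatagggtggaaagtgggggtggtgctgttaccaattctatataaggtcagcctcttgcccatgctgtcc
Lcn2: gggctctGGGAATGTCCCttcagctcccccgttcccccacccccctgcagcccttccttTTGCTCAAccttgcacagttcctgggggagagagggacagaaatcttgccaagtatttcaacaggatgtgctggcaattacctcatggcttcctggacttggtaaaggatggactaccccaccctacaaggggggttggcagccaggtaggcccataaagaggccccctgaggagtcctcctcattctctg
Cp: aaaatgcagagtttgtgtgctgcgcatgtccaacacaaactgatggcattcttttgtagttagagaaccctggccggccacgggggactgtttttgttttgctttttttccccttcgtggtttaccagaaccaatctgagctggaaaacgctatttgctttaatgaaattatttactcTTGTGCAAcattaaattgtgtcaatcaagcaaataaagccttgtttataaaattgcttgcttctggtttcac
In Hpx the capitals are a C/EBP match and, nearer to the start, a match to the antioxidant response element. In Lcn2 they are a pair of overlapping NF-kappaB matches on opposite strands and then a C/EBP match, and in Cp they are a C/EBP match.

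The C/EBP letters TTNNGCAA, read on both strands, were in the windows of 4 of the 6 genes that have a RefSeq promoter here (Hpx, Lcn2, Cp and Hbb), against 9.22% of all 33469 rat promoter windows of that length. The NF-kappaB consensus was in Lcn2 and Hbb (16.4% of all windows), and the antioxidant response letters TGACNNNGC only in Hpx of the 6 (10.1%). The STAT letters TTCNNNGAA were in none of the 6 windows (7.67% of all windows). The erythroid GATA letters AGATAA were in Alas2 (10.3%) and the hypoxia response letters ACGTG in Tfrc (16.6%). These are letter matches in short windows, and Hmox1 and Hp are not among the promoters used.

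At 4 d, 7 of the 11 probe sets, from 5 genes (Hpx, Lcn2, Cp, Hbb and Alas2), had risen and none had fallen, and 4 did not pass the test. All 11 had passed the signal minimum of 100 on at least 2 arrays. Over all probe sets tested, 6.16% rose and 3.73% fell in that comparison (9.89% in all), a background from which nothing is read here since these genes were picked with it known. The 3 arrays at 4 d lay above all 3 untreated arrays for 7 of the 11 probe sets, as they did for 17.5% of all probe sets, and no probe set of the 11 had all 3 lower (11.8% of all). The plot of log2 differences gives each probe set in the 3 comparisons.

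**Figure D1:**
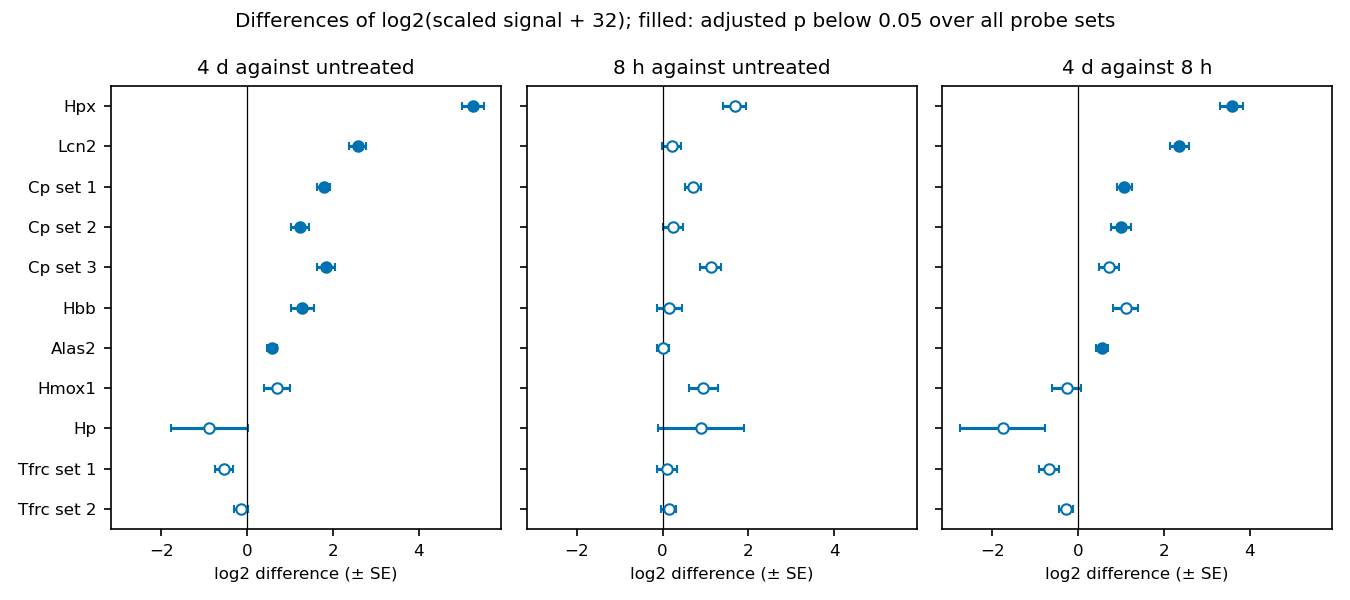
Log2 differences (x axis, with SE) of the 11 probe sets at 4 d against untreated testis, at 8 h against untreated testis and at 4 d against 8 h (panels), filled where the adjusted p is below 0.05. Hpx lies farthest from 0 at 4 d, at 5.26 above untreated testis, and Hp has the widest error.

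Hemopexin carried the largest difference of these genes. Its signal was 5363, 5345 and 8124 at 4 d, against 123.8, 96.4 and 179.3 in untreated testis. All arrays at 4 d lay far above all untreated arrays, with means of 6277 ± 1599 and 133.1 ± 42.3 (SD, n = 3 each), so that the log2 difference was 5.26 ± 0.25. Among 11225 genes ranked by their difference at 4 d, Hpx was number 2. The other described genes ran from number 15 for Lcn2 to number 10927 for Hp. These ranks are descriptions, since the genes were picked on such differences. Low signals compress a log difference, and with a pseudocount of 4, 16 or 64 in place of 32 it was 5.53, 5.41 or 5.0.

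At 8 h the Hpx signal was 387.3 and 609.7, above all 3 untreated arrays and below all 3 arrays at 4 d, so the 3 groups did not overlap. The log2 difference from untreated testis was 1.68 ± 0.27, which did not pass the test without a block and did with the run as a block (1.55 ± 0.13). Between 4 d and 8 h the difference was 3.58 ± 0.27, and Hpx had risen. Hpx was number 12 of the 11225 genes ranked by their difference at 8 h. The other described genes ran from number 82 for Hmox1 to number 4901 for Alas2, again as a description.

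Lipocalin 2 differed late. Its signal was 1477, 1154 and 1801 in untreated testis, 1460 and 1954 at 8 h, and 8051, 7746 and 11048 at 4 d. The arrays at 8 h overlapped the untreated arrays, while those at 4 d were above all of the others. The log2 difference was 2.58 ± 0.20 at 4 d against untreated testis and 2.36 ± 0.22 at 4 d against 8 h, both past the threshold, and 0.21 ± 0.22 at 8 h against untreated testis, which was not.

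Ceruloplasmin is read by 3 probe sets, called set 1 to set 3 here, and all 3 had risen at 4 d. Set 2 gave 730.0, 697.0 and 1199 at 4 d, against 314.9, 367.7 and 341.6 in untreated testis, a log2 difference of 1.24 ± 0.21. Set 1 gave 939.1, 851.5 and 1164 at 4 d, against 244.5, 289.9 and 251.3 in untreated testis, a log2 difference of 1.78 ± 0.16. Set 3 gave 425.5, 380.3 and 589.2 at 4 d, against 101.2, 108.8 and 104.4 in untreated testis, a log2 difference of 1.84 ± 0.21.

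In each of the 3 Cp probe sets the groups at 4 d and untreated did not overlap. At 8 h set 1 gave 435.6 and 457.8 (log2 difference from untreated testis 0.71 ± 0.18), set 2 gave 377.1 and 441.4 (0.24 ± 0.23) and set 3 gave 216.9 and 324.1 (1.12 ± 0.24). In each set both arrays at 8 h were above all untreated arrays, and none of the 3 passed the test. Between 4 d and 8 h set 1 (1.08 ± 0.18) and set 2 (1.0 ± 0.23) had risen. Set 1 lost that call without 8 h 1 (1.04) or 8 h 2 (1.11), and set 2 without any of the arrays other than control 3 and 4 d 2 (0.76 to 1.11), while the difference of set 3, 0.72 ± 0.24, passed with the run as a block and not without.

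**Figure D2:**
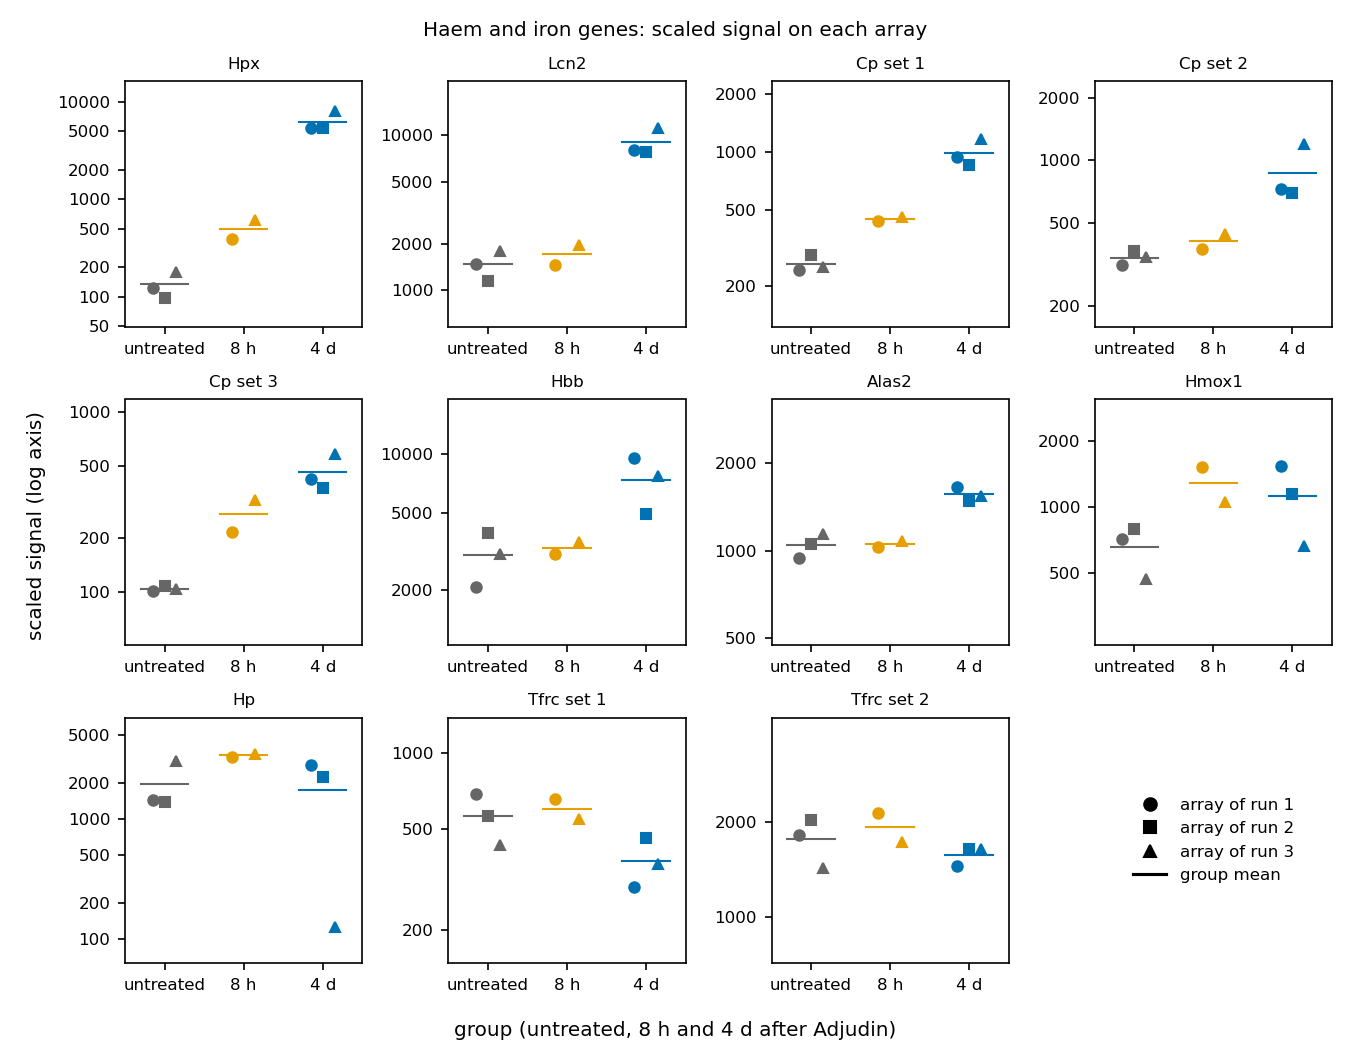
Scaled signal (log y axis) of each probe set of the haem and iron genes on the arrays of untreated testis, 8 h and 4 d after Adjudin, with a point for each array, its shape for the run and a line for the group mean. Hpx, Lcn2 and Cp lie higher at 4 d on every array, while the 4 d arrays of Hp lie as far apart as 126.4 and 2843.

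Hbb and Alas2, both tied to red cells, had also risen at 4 d. Beta globin, a chain of haemoglobin, gave 9559, 4912 and 7707 at 4 d, against 2075, 3915 and 3080 in untreated testis. The lowest array at 4 d was above the highest untreated array, and Hbb had risen by 1.28 ± 0.27 on the log2 scale. Within the runs on which arrays of both groups lay, the difference was 2.19, 0.32 and 1.31, and Hbb lost its call when control 1, 4 d 1 or 4 d 3 was left out (1.03 to 1.22) and with median scaling (1.23). The Hbb probe set has the suffix _x_at, which marks probes that may also bind other transcripts, here perhaps other globin genes.

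Alas2, the enzyme of the first step of haem synthesis in red cell precursors, gave 1656, 1485 and 1540 at 4 d, against 942.8, 1053 and 1141 in untreated testis. The groups did not overlap, the log2 difference was 0.57 ± 0.12 and it passed the test, and it lost the call when control 1, control 2, 4 d 1 or 4 d 3 was left out (0.50 to 0.57), without run 2 (0.61) and with median scaling (0.52). At 8 h Hbb was 3049 and 3532 and Alas2 1032 and 1076, inside their untreated ranges, with log2 differences of 0.16 ± 0.30 and 0.01 ± 0.14. Between 4 d and 8 h Alas2 had risen (0.55 ± 0.14), a call lost without any of the arrays other than control 3 (0.51 to 0.59), and the difference of Hbb, 1.11 ± 0.30, did not pass, but did with the run as a block and without control 1 (1.11) or 4 d 2 (1.38).

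Haem oxygenase 1, which frees iron from haem, had its highest mean signal at 8 h. Its signal was 716.7, 791.7 and 469.0 in untreated testis, 1532 and 1057 at 8 h, and 1547, 1151 and 667.9 at 4 d. Both arrays at 8 h lay above all untreated arrays, whereas those at 4 d overlapped them. The log2 difference was 0.95 ± 0.34 at 8 h and 0.69 ± 0.30 at 4 d, and neither passed the test without a block. With the run as a block both did, at 1.05 ± 0.17 and 0.69 ± 0.14. Between 4 d and 8 h it was -0.26 ± 0.34. Hmox1 was number 82 of the 11225 genes ranked by their difference at 8 h.

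Haptoglobin was set apart by 1 array. Its signal was 1459, 1384 and 3036 in untreated testis, 3318 and 3510 at 8 h, and 2843, 2259 and 126.4 at 4 d. The arrays at 8 h were above all untreated arrays, and those at 4 d overlapped the untreated ones. The log2 difference at 4 d was -0.88 ± 0.89 and did not pass the test, and without the array 4 d 3 it was 0.46. At 8 h it was 0.89 ± 1.00 and between 4 d and 8 h it was -1.76 ± 1.00, neither of which passed.

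The transferrin receptor, which takes up iron, is read by 2 probe sets, called set 1 and set 2 here, and neither passed the test. Set 1 gave 294.9, 460.4 and 363.1 at 4 d, against 690.9, 565.4 and 433.4 in untreated testis, with a log2 difference of -0.55 ± 0.21 that passed with the run as a block (-0.55) or with quantile normalization (-0.70). Set 2 gave 1454, 1642 and 1638 at 4 d, against 1821, 2029 and 1431 in untreated testis, with a log2 difference of -0.14 ± 0.16. The groups overlapped in both. At 8 h set 1 gave 656.4 and 551.0 (log2 difference 0.11 ± 0.23) and set 2 gave 2134 and 1724 (0.14 ± 0.17), neither of which passed. Between 4 d and 8 h set 1 differed by -0.67 ± 0.23, which passed with the run as a block and not without, and set 2 by -0.28 ± 0.17, which did not pass.

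The 2 probe sets annotated to both Srprb, a subunit of the signal recognition particle receptor, and Tf cannot be given to either gene. The brighter gave 9880, 9759 and 13280 at 4 d, against 6617, 6723 and 6361 in untreated testis, a log2 difference of 0.72 ± 0.14, with the groups not overlapping. The other stayed below 100 on 7 of the 8 arrays and was not tested.

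At 8 h none of the 11 probe sets passed the test in limma, and 4 had an unadjusted p below 0.05. These genes were picked with results known, so the counts are descriptions and nothing is read from the shares beside them. Over all probe sets, 0.0657% passed at 8 h, all of them higher. For 6 of the 11 both arrays at 8 h lay above the 3 untreated arrays, as they did for 7.32% of all probe sets (both lay below for 7.62%): Hpx, the 3 Cp probe sets, Hmox1 and Hp. With the run as a block, Hpx and Hmox1 passed, and 0.278% of all probe sets did (0.268% higher and 0.0101% lower).

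At 4 d against 8 h, 5 of the 11 had risen, from 4 genes (Hpx, Lcn2, Cp and Alas2), and none had fallen, while 6.06% of all probe sets passed, 3.58% higher and 2.47% lower. Here too the genes were picked with results known, so the counts are descriptions. For 7 of the 11 all arrays at 4 d were above those at 8 h (21.2% of all probe sets) and for 3 all were below (13.9%). With the run as a block 7 had risen and 1 had fallen, while 15.7% of all probe sets passed, 8.57% higher and 7.09% lower.

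The array settings name 3 projects, which are called runs here, and the runs bear on the spread. The labels do not say that the arrays of a project were hybridised together. The array numbered 1 in each group belonged to run 1, untreated array 2 and 4 d array 2 to run 2, and the remaining arrays to run 3. The 2 arrays of run 2 were made with another fluidics protocol version, and their settings files name mouse as the sample type where the labels say rat. Deviations from the group means of arrays of different groups in the same run correlated with r of 0.353 to 0.507 over the 19785 probe sets tested. Pairs of arrays from different runs gave r of -0.476 to 0.246. The 2 arrays at 8 h deviate from their mean as mirror images, so their values of r are not independent. With the run as a block, 8 of the 11 probe sets had risen at 4 d and 1 had fallen (Tfrc set 1), while 13.3% of all probe sets had risen and 9.19% had fallen (22.5% in all). The counts of the 11 are again descriptions.

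**Figure D3:**
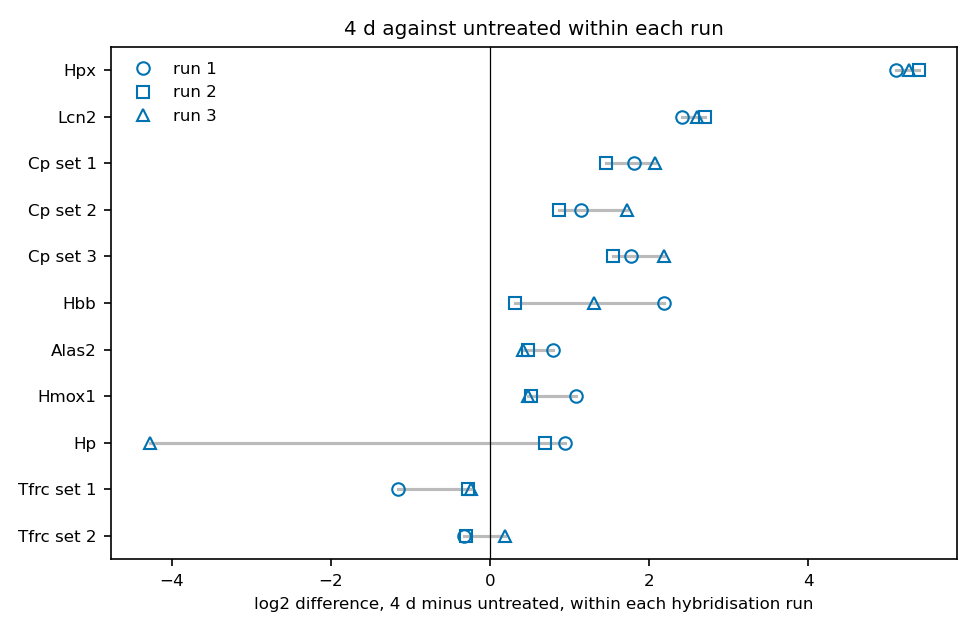
Log2 difference of each probe set at 4 d against untreated testis within each of the 3 runs (x axis, 1 point a run). Hpx lies between 5.11 and 5.39 in all 3 runs, and Hp differs in sign between run 3 and the other two.

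The within-run differences of Hpx at 4 d were 5.11, 5.39 and 5.27, and those of Lcn2 were 2.42, 2.71 and 2.60. Cp set 2 differed by 1.14, 0.87 and 1.72, and Alas2 by 0.79, 0.48 and 0.42, so the signs of these genes were the same in all 3 runs. Hp differed by 0.95, 0.69 and -4.28. At 8 h, which has arrays in run 1 and run 3, Hpx differed by 1.43 and 1.60 and Hmox1 by 1.06 and 1.12.

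Markers of cells that are known to express these genes, and of the other cells of the testis, were read beside them. Lcn2 is also a granule protein of neutrophils. All 6 neutrophil markers on the array were under 100 on every array, with 66.0 as the highest signal, and their sum was 133.0 to 166.0 at 4 d, against 110.8 to 187.4 in untreated testis. Of 8 hepatocyte markers 3 were under 100 on every array and the highest signal was 185.3, and their sum was 465.1 to 641.2 at 4 d, against 570.3 to 740.4 in untreated testis. None of the 5 tested hepatocyte markers passed the test in limma, and 1 had an unadjusted p below 0.05.

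Red cell markers, of which 4 of 6 were under 100 on every array, summed to 297.3 to 437.1 at 4 d, against 241.9 to 407.1 in untreated testis, and the 2 ranges overlapped. Of the 2 tested, neither passed the test in limma, and Gypc (1.07 ± 0.42) had an unadjusted p below 0.05. Slc4a1 differed by -0.28 ± 0.26. Of the 7 macrophage markers on the array, Lyz2 (1.81 ± 0.20), Cd68 (1.26 ± 0.25) and Csf1r (0.57 ± 0.15) had risen at 4 d and Adgre1 (-0.74 ± 0.14) and Aif1 (-0.47 ± 0.12) had fallen, and their sum was 10484 to 11887 at 4 d, against 10109 to 10974 in untreated testis. Aif1 was the brightest of the 7, at 4492, 4884 and 5379 at 4 d, against 7530, 6547 and 6430 in untreated testis. In the sum its fall offset the rise of other markers, so the sum is no measure of the macrophages as a whole. Which cells gave the Aif1 signal was not tested. The 8 Sertoli cell markers summed to 36358 to 47621 at 4 d, against 24632 to 28632 in untreated testis, with Shbg (0.86 ± 0.13) and Cldn11 (0.76 ± 0.16) higher and Rhox5 (-1.5 ± 0.41) lower. Spermatid markers summed to 102690 to 151801 at 4 d, against 141914 to 222361 in untreated testis, with Prm2 (-1.22 ± 0.27) and Akap4 (-0.88 ± 0.18) lower. With the run as a block all 6 spermatid markers were lower. The 6 endothelial markers summed to 1109 to 1283 at 4 d, against 715.6 to 919.9 in untreated testis, and the 4 peritubular cell markers to 2292 to 2707 at 4 d, against 2811 to 3216 in untreated testis. Neither pair of ranges overlapped. No single marker of either list passed the test in limma without a block, with 2 endothelial and 1 peritubular marker at an unadjusted p below 0.05. With the run as a block Esam of the endothelium was higher (0.68 ± 0.14) and Myh11 of the peritubular cells lower (-0.39 ± 0.11). The 7 Leydig cell markers summed to 14445 to 23939 at 4 d, against 11881 to 16407 in untreated testis, and the 4 spermatocyte markers to 44132 to 47386 at 4 d, against 43270 to 49555 in untreated testis, both overlapping. No Leydig cell marker passed the test in limma without a block, and 4 had an unadjusted p below 0.05. With the run as a block 3 Leydig cell markers were higher and 1 was lower. Markers of Sertoli cells, Leydig cells and germ cells were thus read on every array, those of run 2 included, with lowest sums of 24632 for Sertoli cells, 10625 for Leydig cells and 102690 for spermatids. Such signal is no test of the species of the run 2 arrays, whose settings name mouse. The part of these cell types in the results above was not tested.

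**Figure D4:**
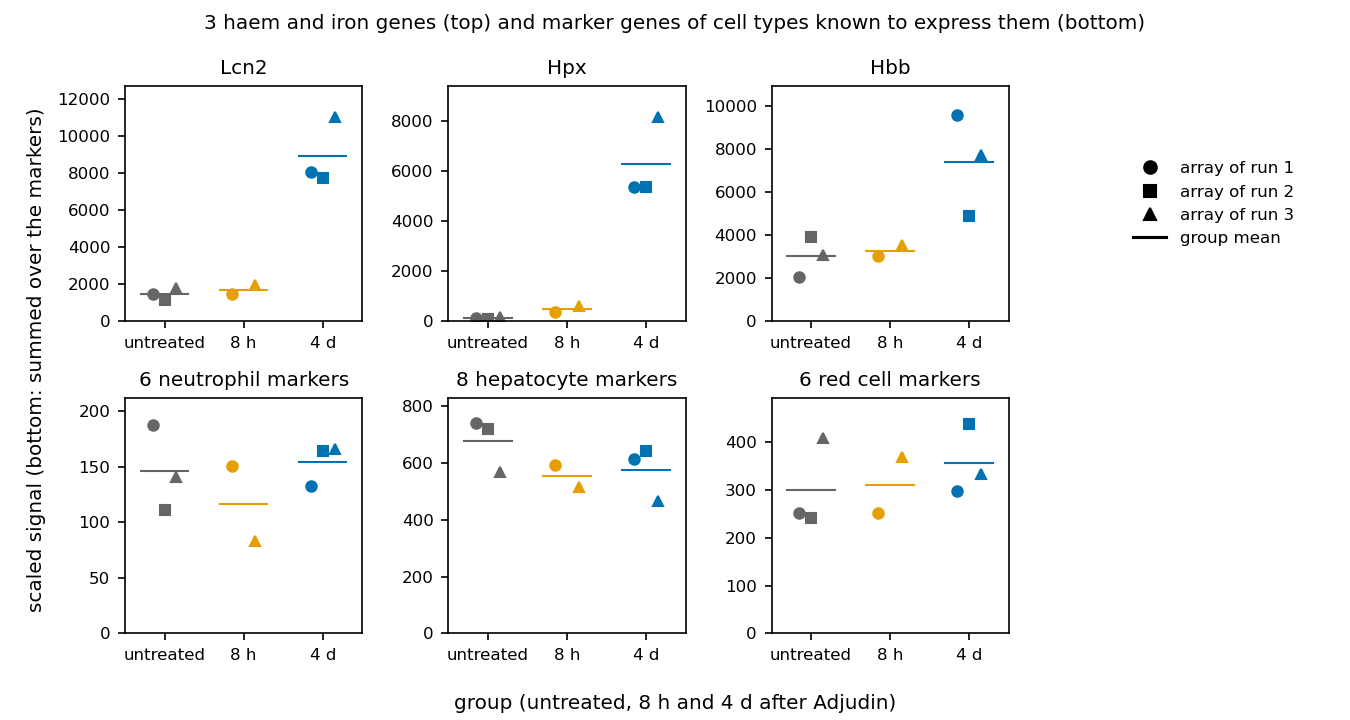
Scaled signals of Lcn2, Hpx and Hbb (top) and the summed scaled signals of neutrophil, hepatocyte and red cell markers (bottom) on each array by group, with shape for run and a line for the group mean. The neutrophil sums lie between 133.0 and 166.0 at 4 d and between 110.8 and 187.4 in untreated testis, and so overlap.

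Other genes of haem and iron handling, and other acute phase proteins, were taken from a list written from general knowledge. Earlier results of these arrays were known when it was written, so the counts and p-values below are no independent test. Of the list, 59 genes were on the array and 49 were tested. At 4 d, 16 of the 49 had risen and 1 had fallen, together 34.7%, beside 6.16% higher, 3.73% lower and 9.89% in all over all probe sets tested. The 49 are genes read by their brightest probe set, while the share over all also counts dimmer and repeated probe sets. With a signal minimum of 200, 15 of 38 listed genes passed, beside 1990 of 14431 probe sets. The median log2 difference was 0.32 over the 49, beside 0.04 over all probe sets. Medians of the marker lists above were 0.41 for macrophages, 0.4 for Leydig cells, 0.4 for red cells, 0.34 for Sertoli cells and 0.33 for endothelium. They were 0.0 for hepatocytes, -0.01 for spermatocytes, -0.18 for peritubular cells and -0.44 for spermatids. A median of this size is thus not particular to the listed genes. None of the 49 passed at 8 h in limma, and 2 had an unadjusted p below 0.05. A2m and Serpina3n, which the list also holds, were known from earlier results of these arrays to be high at 4 d, so they are given without p-values. Without them, a count made after the data were seen, 14 of 47 had risen and 1 had fallen (31.9%), with a median of 0.30. The plot of these genes shows every tested member of the lists.

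**Figure D5:**
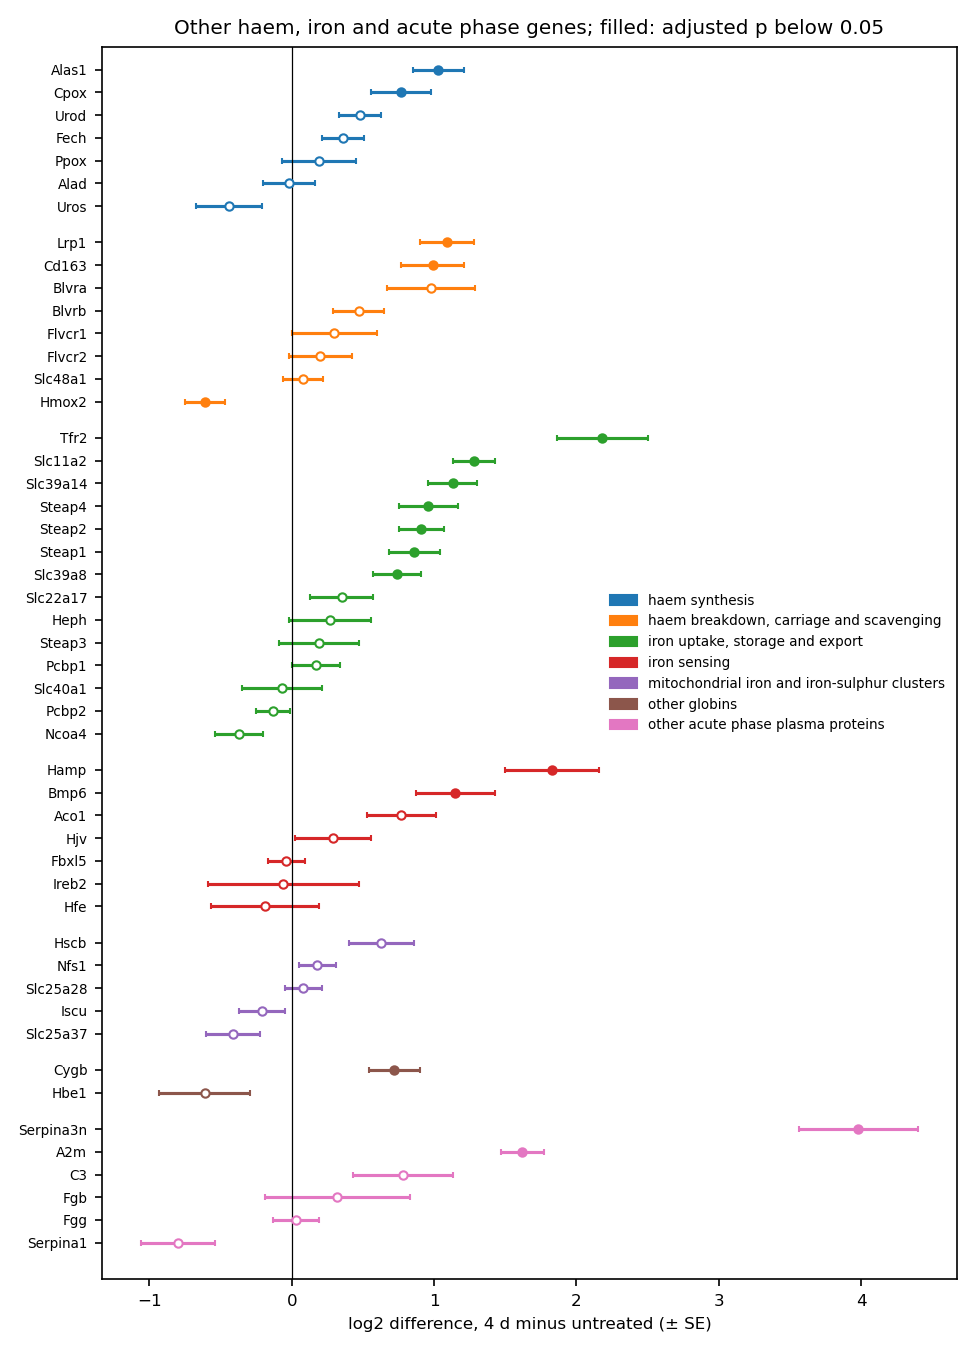
Log2 difference at 4 d against untreated testis (x axis, with SE) of the 49 tested genes of haem, iron and acute phase handling, coloured by list and filled where the adjusted p is below 0.05. The filled points are 16 genes to the right of 0 and Hmox2 to the left.

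In haem synthesis 2 of 7 had risen and none had fallen (6.16% and 3.73% over all probe sets). Alas1, the enzyme of the first step in most cells, gave 2295, 2040 and 3114 at 4 d, against 1007, 1268 and 1280 in untreated testis (log2 1.03 ± 0.18, adjusted p = 0.00666 in limma). Cpox, a later enzyme of the pathway, differed by 0.77 ± 0.21 (adjusted p = 0.0478), and it lost its call when any of the arrays other than control 1 was left out (0.63 to 0.79).

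Among genes of haem breakdown and scavenging 2 of 8 had risen and 1 had fallen (6.16% and 3.73% over all probe sets). Lrp1, the receptor that takes up hemopexin with its haem, gave 1417, 979.3 and 1071 at 4 d, against 591.4, 538.6 and 434.6 in untreated testis (log2 1.09 ± 0.19, adjusted p = 0.00642 in limma). Cd163, the macrophage receptor for haptoglobin bound to haemoglobin, gave 194.5, 184.9 and 236.9 at 4 d, against 104.6, 74.8 and 84.4 in untreated testis (log2 0.99 ± 0.22, adjusted p = 0.0209). Hmox2, the constitutive haem oxygenase, fell to 5415, 5813 and 6395 at 4 d, against 8460, 8177 and 10304 in untreated testis (log2 -0.61 ± 0.14, adjusted p = 0.0238).

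Of the iron uptake, storage and export genes 7 of 14 had risen and none had fallen (6.16% and 3.73% over all probe sets). Tfr2, a second transferrin receptor, gave 356.7, 318.5 and 390.0 at 4 d, against 66.2, 60.2 and 36.6 in untreated testis (log2 2.18 ± 0.32, adjusted p = 0.00284 in limma). Slc11a2, the transporter that moves iron out of endosomes, gave 1738, 1569 and 1696 at 4 d, against 659.3, 754.3 and 593.1 in untreated testis (log2 1.28 ± 0.15, adjusted p = 0.000811), and only 1 of its 2 probe sets passed. The metal importers Slc39a14 (1.13 ± 0.17) and Slc39a8 (0.74 ± 0.17), the iron and copper reductases Steap4 (0.96 ± 0.21) and Steap2 (0.91 ± 0.16), and their relative Steap1 (0.86 ± 0.18) had also risen, with 1 of the 2 probe sets of Slc39a14 past the threshold. The iron exporter ferroportin, Slc40a1, did not pass the test, with a log2 difference of -0.07.

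Among iron sensing genes 2 of 7 had risen, beside 6.16% over all probe sets: Hamp, the hormone hepcidin that closes the iron exporter, by 1.83 ± 0.33 (adjusted p = 0.00745 in limma), and Bmp6, a signal that induces it in the liver, by 1.15 ± 0.28 (adjusted p = 0.0286). Hamp gave 376.5, 321.9 and 243.5 at 4 d, against 110.8, 30.6 and 67.2 in untreated testis. None of the 5 tested genes of mitochondrial iron passed, and 1 had an unadjusted p below 0.05, Hscb (0.63 ± 0.23, adjusted p = 0.122 and unadjusted p = 0.0198). Of the other globins 1 of 2 had risen, Cygb (0.72 ± 0.18), and of the other acute phase proteins 2 of 6, the protease inhibitors Serpina3n (3.98 ± 0.42) and A2m (1.62 ± 0.15), which were known to be high.

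Of the 17 genes past the threshold, 9 kept their call when each array was left out in turn: A2m, Alas1, Hamp, Lrp1, Serpina3n, Slc11a2, Slc39a14, Steap2 and Tfr2. Of these 9, Alas1 lost it with median scaling (0.99), and Hamp (1.5), Slc39a14 (1.17) and Steap2 (0.99) without run 2. Cpox is given above. Bmp6 lost its call without any 1 of control 1, 2 and 3, 4 d 1 and 4 d 2 (1.04 to 1.19), and Cygb without any 1 of control 1, control 2 and the 3 arrays at 4 d (0.60 to 0.78). Cd163 lost it without control 2 or any array at 4 d (0.89 to 1.05), and Steap4 without control 1 or any array at 4 d (0.86 to 1.02). Hmox2 lost it without control 1, control 3, 4 d 1 or 4 d 2 (-0.64 to -0.50), Slc39a8 without control 1, control 3, 4 d 1 or 4 d 3 (0.62 to 0.73), and Steap1 without 4 d 2 or 4 d 3 (0.77 to 0.83).

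Genes whose log2 signals ran closest to each gene over the 8 arrays were found among 11217 genes by Pearson's r, as a description. For Hpx they were Sat1 (r = 0.997), Tnfrsf1a (0.994) and Prr13 (0.993), and for Lcn2 Dap (0.996), Ctsd (0.996) and C1r (0.994). For Cp they were Myl9 (0.993), Amhr2 (0.987) and Dync1li2 (0.986), for Hbb Sdhc (0.994), Arhgap21 (0.973) and Psma2 (0.968), and for Alas2 Ms4a6bl1 (0.989), Cd200 (0.989) and Folr1 (0.986). For Hmox1 they were Frrs1 (0.967), Mfsd3 (0.952) and Ifrd1 (0.947), and for Tfrc Nxpe3 (0.952), Akr1b7 (0.949) and Necab2 (0.945). The 8 points share 3 groups and 3 runs, so any gene that is high at 4 d resembles Hpx.

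For Hp the closest were Slc12a9 (0.954), the class I gene RT1-CE5 (0.945) and Arhgap45 (0.928). RT1-CE5 gave 526.6, 894.1 and 1.2 at 4 d, against 343.3, 333.7 and 775.0 in untreated testis, so it was low on the same array, 4 d 3, as Hp. Whether the testis on that array differed from the others in more than the treatment was not tested, and the Hp differences at 4 d should be read with the value without it, 0.46 against untreated testis and -0.42 against 8 h.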

How the data were processed

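Per the submitters' processing notes and design text, arrays were read with MAS 5.0 and GeneSpring 7.2; the deposited value table holds MAS 5.0 signal intensities on a linear scale. Each array took 5 µg of RNA, from 0.1 g of tissue, per the labels' protocols. Platform annotation gave 1 symbol to 20826 probe sets, several to 436 and none to 9780, and a RefSeq table held 20758 of the IDs. No column lacked a sample.

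From the deposited intensities, each array was scaled to a 2% trimmed mean of 500. Kept were probe sets that reached 100 after scaling on 2 arrays or more, and the 57 array controls were left out, leaving 19785. log2(signal + 32) was fitted with limma 3.58.1 in R 4.3.3 (lmFit, eBayes with a trend, Benjamini-Hochberg at 0.05), all 8 arrays in 1 fit and no block; the fit was tested on simulated data. The number of arrays limits the precision. Between 51.6% and 59.0% of probe sets reached 100 per array.

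Run and replicate number were alternatives as a replicate block. For control and 4 d the title numbers coincide with the run: same-numbered arrays deviated together (r = 0.363, 0.353 and 0.507). The array 8 h 2 belongs to run 3, so the run is the block given beside results. A gene other than those described is represented by its brightest probe set. The genes and lists were chosen with earlier results of these data known. Named were all described genes, listed genes past the threshold, the smallest p of a list with none, up to 2 markers a cell type and the 3 genes nearest in pattern; further markers were named after their values were seen.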

Additional observations from a re-analysis of the deposited data

Results flagged for a closer look

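The difference between the effects at 4 d and at 8 h, both against untreated testis, passed the test of 4 d against 8 h for 5 probe sets of the haem and iron genes. On the log2 scale it was 3.58 for Hpx, 2.36 for Lcn2, 1.08 and 1.0 for set 1 and set 2 of Cp, and 0.55 for Alas2. These genes were chosen with results known, so the values are descriptions.

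The same difference passed for 9 other listed genes, of which Serpina3n and A2m were known to be high at 4 d. It was 3.68 for Serpina3n, 2.32 for Tfr2, 1.56 for Bmp6, 1.54 for A2m, 1.26 for Lrp1, 1.02 for Alas1, 0.99 for Slc39a8, 0.83 for Slc39a14 and 0.76 for Slc11a2.

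The probe set that names both Srprb and Tf, outside the 11 probe sets described, was higher at 4 d than in untreated testis by 0.72 on the log2 scale.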

How the results depend on the processing

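The alternatives were the run or the title number as a replicate block, pseudocounts, scaling, the signal minimum, the trend, the 2 groups alone, averaging probe sets per gene, leaving out each array and leaving out run 2. The 7 described probe sets that rose at 4 d numbered 5 to 7 without single arrays. Over all probe sets at 4 d, 1956 passed; 4451 did with the run as a block, 3494 with the title number as a block, 1152 with median scaling, 516 without run 2 and 899 to 1813 without single arrays (899 without 4 d 1, 1193 without control 2, 1192 without 4 d 3, 1292 without control 1). At 8 h 13 passed, and 55, 38 and 20 did under the run block, number block and median scaling, 7 with only 2 groups, 3 without run 2 and 0 to 15 without single arrays (0 without either 8 h array). At 4 d against 8 h 1198 passed, and 3098, 2545, 520, 343 and 263 to 1507 did under the run block, number block, median scaling, without run 2 and without single arrays (397 and 263 without 8 h 1 and 8 h 2, 417, 712 and 726 without 4 d 1, 2 and 3). Of the other listed genes 17 passed at 4 d, 6 without run 2 and 10 to 16 without single arrays (10, 10 and 11 without 4 d 1, 2 and 3). Of the described probe sets at 8 h, 0 passed, 2 did with the run block and 1 with the number block. At 4 d against 8 h 5 passed, 8 with the run block, 2 with median scaling, 3 with no signal minimum, 3 without the trend and 2 to 5 without single arrays (2 without 8 h 1 or 8 h 2, 3 without control 2, 4 d 1 or 4 d 3). Of 999 single-gene values, 876 kept direction and call, 96 lost the call, 16 gained it and 11 changed sign. Sign changes (range without single arrays in brackets) were Alas2 at 8 h, -0.06 without control 1 and -0.01 without 8 h 2 (-0.06 to 0.08), Hbb at 8 h, -0.08 without control 1 (-0.08 to 0.37), Hmox1 at 4 d against 8 h, 0.01 with the number block, 0.006 without 8 h 1 and 0.07 without 4 d 3 (-0.52 to 0.07), Hp at 4 d, 0.46 without 4 d 3 (-1.63 to 0.46), Tfrc set 1 at 8 h, -0.05 without control 3 and -0.007 without 8 h 1 (-0.05 to 0.26), and Tfrc set 2 at 8 h, -0.003 without control 3 and -0.01 without 8 h 1 (-0.01 to 0.29). Causes were not tested. Signals near 100 are close to background, and with 2 arrays at 8 h the precision is limited.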
